A study of Mus musculus with 12 samples.

Results

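Levels of 9 genes for cell adhesion in nerve cells and at synapses were followed by bulk RNA-seq of mouse small cell lung tumours. The genes, Ncam2, Opcml, Lsamp, Ntm, Negr1, Cadm1, Nlgn1, Lrrtm4 and Lypd1, are 9 of the 22738 gene rows of the count table, taken by their symbols, and all 9 were among the 17426 genes with enough counts to be tested. Every mouse carried Rb1 fl/fl, p53 fl/fl and Myc lsl/lsl T58A alleles, and tumours were induced at 8 weeks of age with an adenovirus in which the CGRP promoter, active in neuroendocrine cells, drives Cre. Cre deletes both tumour suppressors and switches on the mutant Myc. There were 3 libraries in each of 4 groups: control, anti-PD-1 (an antibody against an inhibitory receptor of T cells, 10 mg/kg for 4 weeks), entinostat (a class I histone deacetylase inhibitor, 15 mg/kg by mouth each day for 28 days) and the combination of both agents. The study used methylcellulose vehicle and an isotype antibody as controls, and the sources used here do not say which of them the control libraries received. Nor do the labels tie each library to a separate mouse, so the p-values measure the spread between these libraries, which may be partly technical.

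Adhesion molecules of this kind hold neurites and synapses together. The IgLON proteins (Opcml, Lsamp, Ntm, Negr1 and Iglon5) are small immunoglobulin-domain proteins held to the membrane by a lipid anchor, and they bind themselves and each other. Ncam2 and Cadm1 are immunoglobulin-superfamily proteins that span the membrane and bind across cell contacts. Nlgn1 and Lrrtm4 sit on the postsynaptic side and bind presynaptic partners, and Lypd1 is a lipid-anchored Ly6 protein that modulates nicotinic acetylcholine receptors. Small cell lung cancer is a neuroendocrine tumour whose cells carry many neuronal genes, and NCAM1, the relative of Ncam2, is one of its diagnostic markers.

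Measured values of these libraries entered the choice of genes. Ncam2 and Lypd1 were chosen by their log2 fold change between entinostat and control, and Lrrtm4 by its difference between the libraries with and without entinostat; how the other 6 genes were picked is not stated. For these 9 genes, all differences that use those contrasts are therefore descriptions, given without a p-value. Where their number under the adjusted threshold is given for such a contrast, it is a description too and not a test result. The related genes further on were listed by family and are tested. Their list was also drawn up with earlier results of these data known, so their tests are not independent of that knowledge. Tests are given for 2 comparisons that were not themselves used in the choice, as far as it is stated. These are the combination against anti-PD-1 (not for Lrrtm4) and the anti-PD-1 main effect, which averages the effect of the antibody without and with entinostat. The anti-PD-1 main effect does include the libraries used in the choice. It is independent of the choice only where all groups have a like spread. For Lypd1 the SD was 18.8 CPM in control and 0.447 CPM under entinostat (n = 3 each), so its test may not be independent. Levels are CPM, read counts divided by library size after scaling with TMM factors. Fold changes are on the log2 scale from 1 edgeR fit to all 12 libraries. Their standard errors (SE) are approximate, worked back from the fit's F test. Each is the size of the log2 fold change divided by the square root of F.

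Neuroendocrine markers were present but uneven. Each of 12 neuroendocrine markers was detected in every library, and their summed level ran from 927 to 1802 CPM in controls, 648 to 1111 under anti-PD-1, 452 to 904 under entinostat and 377 to 615 under the combination. For the entinostat main effect all 12 had a negative log2 fold change and 3 were called lower, where 6.74% of all genes were. For entinostat against control, and for the combination against anti-PD-1, 11 of 12 were negative. The edgeR test called 0 of 12 in each, against 5.27% and 0% of all genes. At an unadjusted p under 0.05 there were 2 and 4, against 24.4% and 12.4% of all genes. DESeq2 called 2 in each, against 13.4% and 2.52% of all genes. Neurod1 ranged from 5.65 to 490 CPM, with the highest Neurod1 value in control library 1. A list of 7 neuronal markers summed to 160 to 1121 CPM in controls, 249 to 443 under anti-PD-1, 157 to 212 under entinostat and 110 to 264 under the combination. Fibroblast markers (6 genes) summed to 266 to 347, 140 to 783, 575 to 723 and 477 to 1409 CPM in the same order. For the entinostat main effect 1 of these 6 was called higher, as were 674 of the 17426 genes tested. Of the 7 markers of peripheral glia, which also carry adhesion genes, Foxd3 was at 0 in 9 libraries and Cdh19 at 0 in 7, and the list summed to between 5.25 and 13.0 CPM in every library. In bulk tissue, fewer tumour cells and less RNA of a gene per tumour cell cannot be told apart, and the part of these marker differences in the results was not tested. Total counts ran from 31295987 to 54001886 per library.

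The stretch of 250 bases ahead of the first listed transcription start is shown, from RefSeq on GRCm38.p6, for the 3 genes with the lowest log2 fold change in the entinostat main effect. Motifs of the E-box type were searched on both strands because factors of this tumour bind them: CACGTG is the usual MYC site, and CAGCTG and CAGATG are read by neural basic helix-loop-helix factors such as NEUROD1. CACGTG and CAGCTG read the same on both strands, the strand partner of CAGATG is CATCTG, and none of the 3 motifs is a form of another. Capitals mark a match.
Lrrtm4, chr6:80018627-80018876, plus strand: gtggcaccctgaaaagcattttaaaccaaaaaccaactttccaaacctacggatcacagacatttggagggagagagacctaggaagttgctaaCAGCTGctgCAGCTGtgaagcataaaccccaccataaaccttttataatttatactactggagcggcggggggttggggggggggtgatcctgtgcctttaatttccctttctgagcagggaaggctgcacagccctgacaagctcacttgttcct
Ncam2, chr16:81200447-81200696, plus strand: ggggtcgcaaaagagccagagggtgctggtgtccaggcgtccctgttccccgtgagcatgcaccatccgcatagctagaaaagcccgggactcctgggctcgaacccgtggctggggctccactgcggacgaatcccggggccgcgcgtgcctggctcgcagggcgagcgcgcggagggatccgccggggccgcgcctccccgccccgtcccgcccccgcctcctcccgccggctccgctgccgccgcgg
Opcml, chr9:27791049-27791298, plus strand: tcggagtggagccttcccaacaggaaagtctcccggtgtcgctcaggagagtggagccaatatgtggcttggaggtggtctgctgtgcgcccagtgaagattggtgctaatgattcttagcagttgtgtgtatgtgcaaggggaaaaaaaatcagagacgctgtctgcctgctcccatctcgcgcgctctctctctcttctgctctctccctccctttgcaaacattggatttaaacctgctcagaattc

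The Lrrtm4 stretch holds CAGCTG at 2 places, 156 and 147 bases ahead of the start, and the Ncam2 and Opcml stretches hold none of the motifs. Base composition also differs between them, with a GC content of 75.2% for Ncam2, 52% for Opcml and 49.2% for Lrrtm4. RefSeq entries matched 8 of the 9 genes, all but Cadm1, with 14 starts between them. CAGCTG was found at 3 of the 14 starts, against 13% of all 32851 starts in the RefSeq table. These were starts 1 and 2 of Lrrtm4 and start 3 of Lypd1, so they are not separate genes. At start 2 of Lrrtm4, whose stretch is not shown, the match lay 40 bases ahead. CACGTG was found at 1 start, against 6.02% of all starts, and CAGATG at 1 start, against 14.4%. A match of letters is a description of the stretch and not a binding site. By chromosome, Opcml, Ntm and Cadm1 lie on 9, Ncam2 and Lsamp on 16, Negr1 and Nlgn1 on 3, Lrrtm4 on 6 and Lypd1 on 1.

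Ncam2, the membrane-spanning relative of Ncam1 known from olfactory axons, stood at 24.0, 4.55 and 19.0 CPM in control libraries 1 to 3, at 9.43, 3.21 and 5.74 CPM with anti-PD-1, at 2.35, 1.17 and 3.51 CPM with entinostat and at 1.31, 1.46 and 2.59 CPM with the combination. Both groups with entinostat lay below the control group without overlap. Over the 6 libraries with entinostat the level was 2.07 ± 0.915 CPM, against 11.0 ± 8.54 CPM over the 6 without (SD). These sets overlapped only through anti-PD-1 library 2, whose 3.21 CPM lay under the 3.51 CPM of entinostat library 3. The log2 fold change was −2.75 (SE 0.66) for entinostat against control and −2.26 (SE 0.46) for the entinostat main effect, the mean of the drug's effects without and with the antibody. Leaving out each library in turn moved the first between −3.20 and −2.32.

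Lrrtm4, a postsynaptic leucine-rich repeat protein of excitatory synapses, stood at 12.0, 33.9 and 8.38 CPM in the 3 control libraries, at 25.5, 9.49 and 7.10 CPM under anti-PD-1, at 4.42, 3.98 and 4.92 CPM under entinostat and at 1.89, 3.04 and 4.62 CPM under the combination. It was the only one of the 9 genes whose 6 libraries with entinostat all lay below the 6 without. Of all tested genes 2.32% did the same, but Lrrtm4 was chosen by this difference, so nothing is read from that share. With entinostat the libraries lay close together, at 3.81 ± 1.15 CPM, and without it they spread to 16.1 ± 11.0 CPM (SD, n = 6 each). The log2 fold change was −2.03 (SE 0.60) against control and −2.08 (SE 0.43) for the main effect. Without control library 2, which held the highest value, the difference from control was −1.20. The annotation (GENCODE M21, GRCm38) places the antisense transcript Gm4409, which has no row in the count table, across 1543 of the 6147 exon bases of Lrrtm4. The sources used here do not give the strand setting of the counting, so reads of the 2 cannot be told apart.

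Opcml, the IgLON member best known as a gene silenced in ovarian cancer, stood at 11.4, 1.68 and 10.1 CPM in the 3 control libraries, at 11.7, 1.94 and 3.23 CPM under anti-PD-1, at 0.989, 1.08 and 4.58 CPM under entinostat and at 0.686, 0.805 and 1.01 CPM under the combination. The combination libraries were all below those of anti-PD-1 and of control, while entinostat library 3 stayed among the control values. Opcml and Ncam2 were high and low in the same libraries. As a description, their log2 CPM correlated with Pearson r = 0.92 over the 12 libraries and 0.90 within groups. The part of tumour content in this correlation was not tested. Lrrtm4 and Ncam2 had r = 0.65 over all libraries and −0.11 within groups.

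**Figure D1:**
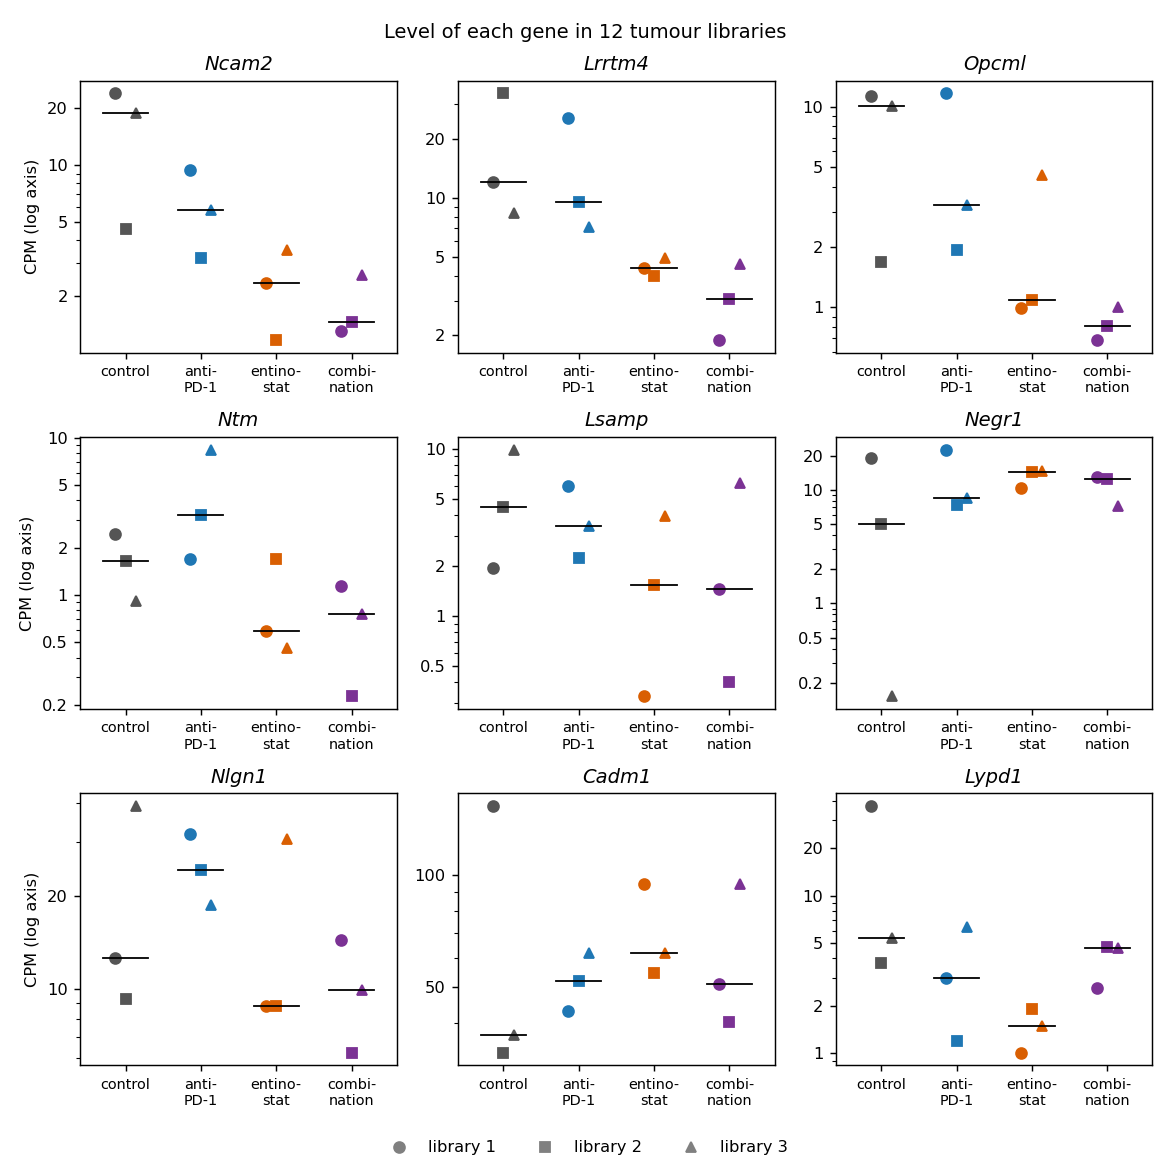
Level of each of the 9 genes in CPM (log axis) in the 12 libraries, by treatment group. Each symbol is a library (circle, square and triangle for libraries 1, 2 and 3) and each bar is the group median; Lrrtm4 shows its 6 libraries with entinostat at 1.89 to 4.92 CPM, below the 7.10 to 33.9 CPM of the 6 without.

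The other IgLON members did not share one pattern. Ntm, neurotrimin, stood at 2.45, 1.63 and 0.911 CPM in the 3 control libraries, at 1.70, 3.25 and 8.43 CPM under anti-PD-1, at 0.594, 1.70 and 0.458 CPM under entinostat and at 1.14, 0.226 and 0.754 CPM under the combination. Its highest group was anti-PD-1, and that group alone was clear of the combination. Lsamp, the limbic system-associated membrane protein, stood at 1.94, 4.49 and 9.89 CPM, at 5.95, 2.22 and 3.44 CPM, at 0.330, 1.52 and 3.94 CPM and at 1.46, 0.402 and 6.21 CPM in the same order. All 4 groups of Lsamp overlapped, and the log2 fold change of the entinostat main effect was −1.01 (SE 0.71).

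Negr1, an IgLON of the growing neuron, went its own way at 19.2, 4.99 and 0.152 CPM in the 3 control libraries, 22.7, 7.41 and 8.55 CPM under anti-PD-1, 10.4, 14.4 and 14.6 CPM under entinostat and 13.0, 12.5 and 7.19 CPM under the combination. Control library 3 held 6 counts of Negr1, against at least 210 in each of the other libraries. The libraries with entinostat averaged 12.0 ± 2.81 CPM and those without 10.5 ± 8.65 CPM (SD, n = 6 each). Its log2 fold change for the main effect was 0.23 (SE 0.69), the opposite sign to the other IgLON members. Iglon5, the fifth member of the family and named here as a paralogue, stood at 4.05 ± 0.420, 5.77 ± 3.25, 2.78 ± 2.13 and 3.79 ± 1.38 CPM over control, anti-PD-1, entinostat and combination (SD, n = 3 each), with a main effect of −0.57 (SE 0.52).

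Cadm1 (SynCAM 1), which binds itself across contacts of epithelial and nerve cells, had a fitted difference close to 0 for entinostat. It stood at 153, 33.4 and 37.3 CPM in the 3 control libraries, at 43.0, 52.0 and 61.8 CPM under anti-PD-1, at 94.3, 54.4 and 61.7 CPM under entinostat and at 51.1, 40.3 and 94.6 CPM under the combination. Control library 1 held the highest value of the 12, and the other 2 controls the lowest. The entinostat main effect was 0.08 (SE 0.37), and all groups overlapped. The paralogue Cadm4 stood at 44.2 ± 13.8, 33.5 ± 4.54, 22.3 ± 3.07 and 27.4 ± 7.70 CPM over control, anti-PD-1, entinostat and combination (SD, n = 3 each), with a main effect of −0.64 (SE 0.19, edgeR adjusted p = 0.057).

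Nlgn1, neuroligin 1 of excitatory synapses, stood at 12.6, 9.33 and 39.3 CPM in the 3 control libraries, at 31.9, 24.3 and 18.7 CPM under anti-PD-1, at 8.86, 8.81 and 30.6 CPM under entinostat and at 14.4, 6.24 and 9.98 CPM under the combination. The third library of control and of entinostat stood above its group by a wide gap, and the combination lay wholly below anti-PD-1. The log2 fold change was −0.34 (SE 0.60) for entinostat against control and −0.82 (SE 0.43) for the main effect. The antisense transcript A830092H15Rik, also without a row in the table, covers 1229 of the 13422 exon bases of Nlgn1.

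Lypd1 stood at 37.2, 3.77 and 5.42 CPM in the 3 control libraries, at 3.01, 1.20 and 6.32 CPM under anti-PD-1, at 1.01, 1.90 and 1.50 CPM under entinostat and at 2.60, 4.70 and 4.67 CPM under the combination. Entinostat lay below control and below the combination without overlap, and overlapped with anti-PD-1. Control library 1 alone set the size of the difference: the log2 fold change of entinostat against control was −3.39 (SE 0.88) with it and −1.64 without it, and that of the main effect −1.60 (SE 0.58) with it and −0.73 without it. The main effect averages −3.39 with the 0.19 (SE 0.80) of the combination against anti-PD-1.

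The Lypd1 values are also uncertain as values of Lypd1. The protein-coding gene Gpr39, a zinc-sensing receptor, runs on the opposite strand and its exons overlap 1202 of the 7038 exon bases of Lypd1 (17.1%). Of 12470 genes compared, Gpr39 was the one most like Lypd1 across the 12 libraries, with Pearson r = 0.99 of log2 CPM. Control library 1 held 1899 counts of Lypd1 and 1700 of Gpr39, and entinostat library 1 held 46 and 63. In every library the Gpr39 count was between 85.6% and 137% of the Lypd1 count. Without a stated strand setting, the reads of this pair cannot be told apart, and neither can a change of one from a change of the other.

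**Figure D2:**
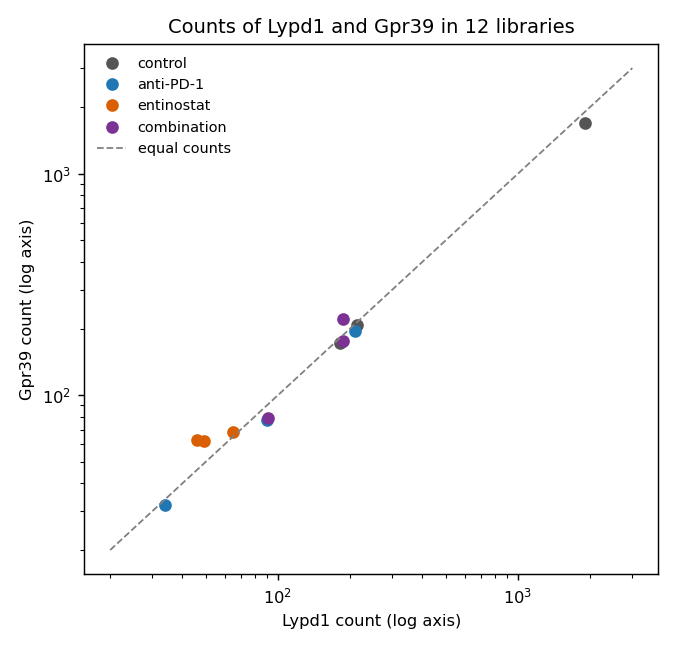
Raw counts of Gpr39 against those of Lypd1 in the 12 libraries (both axes log), coloured by group, with a dashed line at equal counts. All 12 points lie near the line, from 34 and 32 counts in anti-PD-1 library 2 to 1899 and 1700 in control library 1.

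The counts in this paragraph describe contrasts that helped to choose the genes, or that share libraries with them. Nothing is therefore read from them against the shares of all genes, which are printed as background. A place under the adjusted threshold is not a test result for these 9 genes, because the choice had already used such differences. For the entinostat main effect, 6 of the 9 genes had a log2 fold change under −1 (Opcml, Lsamp, Ntm, Ncam2, Lrrtm4 and Lypd1), against 4.52% of all tested genes, and the median over the 9 was −1.60, against 0.02 over all tested genes. Opcml, Ncam2 and Lrrtm4 are 3 of the genes under the adjusted threshold of the same fit on the lower side, which took in 6.74% of all genes. Against control, that side held 2 of the 9 for entinostat (Ncam2 and Lypd1; 3.98% of all genes) and 3 for the combination (Opcml, Ncam2 and Lrrtm4; 7.78% of all genes). Ncam2, Lrrtm4 and Lypd1 were lower with entinostat than in control without overlap, as were 15.7% of all genes. The comparisons with control share the control libraries.

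The combination against anti-PD-1 compares 2 groups that the choice of Ncam2 and Lypd1 did not use. Lrrtm4, whose choice used these libraries, is left out of the counts. Of the other 8 genes, 4 were lower in the combination without overlap (Opcml, Ntm, Ncam2 and Nlgn1), as were 9.25% of all genes. Fitted values were −2.75 (SE 0.90) for Opcml, −2.65 (SE 0.81) for Ntm, −1.77 (SE 0.64) for Ncam2 and −1.29 (SE 0.61) for Nlgn1. Lrrtm4, as a description, had −2.14 (SE 0.61). The other 4 genes lay nearer 0, at −0.52 (SE 1.00) for Lsamp, −0.24 (SE 0.98) for Negr1, 0.25 (SE 0.53) for Cadm1 and 0.19 (SE 0.80) for Lypd1.

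By edgeR's quasi-likelihood test, 0 of the 8 genes tested passed the adjusted threshold of 0.05 in this comparison, as did 0% of all genes. The adjusted p was 0.262 for Ntm, 0.273 for Opcml and 0.314 for Ncam2, and at least 0.419 for the rest. At an unadjusted p under 0.05, 3 of the 8 were lower (Ntm, Opcml and Ncam2), against 6.38% of all genes. DESeq2 called 2 of the 8, Ntm with an adjusted p of 0.026 and Opcml with 0.034, and 2.52% of all genes; for Ncam2 it gave 0.095. Without anti-PD-1 library 1, the highest of its group for both genes, the fold change of Opcml became −1.64 and that of Lrrtm4 −1.39.

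**Figure D3:**
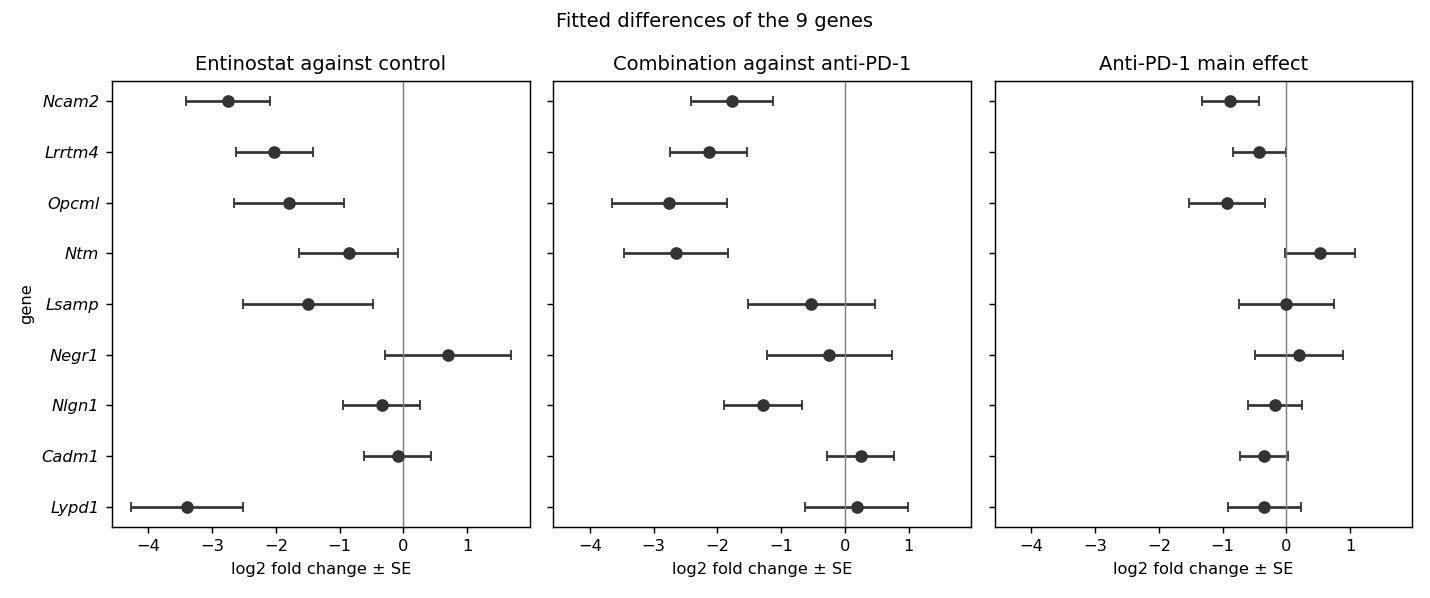
Fitted log2 fold change of the 9 genes for entinostat against control, the combination against anti-PD-1 and the anti-PD-1 main effect. Points are estimates from the fit to 12 libraries and bars are ± 1 SE; Opcml, Ntm, Ncam2 and Lrrtm4 lie at or below −1.77 in the middle panel and all 9 genes lie within 1 of 0 in the right panel.

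The antibody gave no difference that passed the test. In the anti-PD-1 main effect, fold changes ran from −0.93 (SE 0.60) for Opcml and −0.88 (SE 0.44) for Ncam2 to 0.52 (SE 0.55) for Ntm, with a median of −0.35. The smallest adjusted p by edgeR was 0.497, for Ncam2. None of the 9 reached an unadjusted p under 0.05, against 10.8% of all genes, and DESeq2 called 0 of the 9, against 0.313% of all genes. For Lypd1, the value of −0.35 (SE 0.57) became 0.53 without control library 1. As a description, it averages values of opposite sign. These were −2.14 (SE 0.83) for anti-PD-1 against control and 1.44 (SE 0.82) for the combination against entinostat.

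Each gene was also set against the summed level of the neuroendocrine markers, a scale chosen after the values were seen. Per 1000 CPM of the 12 markers, Ncam2 lay at 2.59 to 4.22 CPM in the 6 libraries with entinostat and at 4.28 to 20.4 CPM in the 6 without, so that the sets did not overlap. Such a ratio does not separate fewer tumour cells from less RNA per cell. The share of all genes without overlap on this scale was not computed, so the overlaps in this paragraph are descriptions only. Lrrtm4 lay at 5.01 to 8.82 with entinostat and 6.67 to 31.9 without, and Opcml at 1.60 to 5.07 and 1.58 to 10.9, so that both overlapped on this scale. Cadm1 was at 68.3 to 169 with entinostat and 31.4 to 85.0 without, and Negr1 at 11.7 to 34.4 and 0.164 to 20.4. Lypd1, at 1.66 to 9.36 with entinostat and 1.85 to 20.6 without, had the higher median with it (5.56 against 4.69). The remaining ranges also overlapped, at 0.451 to 3.76 and 0.983 to 10.1 for Ntm, 12.4 to 38.2 and 6.99 to 42.4 for Nlgn1, and 0.592 to 10.1 and 1.08 to 10.7 for Lsamp. For entinostat against control the means of Ntm (1.78 ± 1.74 against 1.29 ± 0.283) and Nlgn1 (23.1 ± 9.50 against 19.4 ± 19.9) were the higher with entinostat, the other direction from their CPM, by less than the SD (n = 3 each). In the combination against anti-PD-1, Opcml (1.60 to 1.82 against 3.00 to 10.5), Ncam2 (2.90 to 4.21 against 4.96 to 8.48) and Lrrtm4 (5.01 to 7.52 against 8.50 to 22.9) did not overlap. Ntm and Nlgn1 did overlap on this scale.

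**Figure D4:**
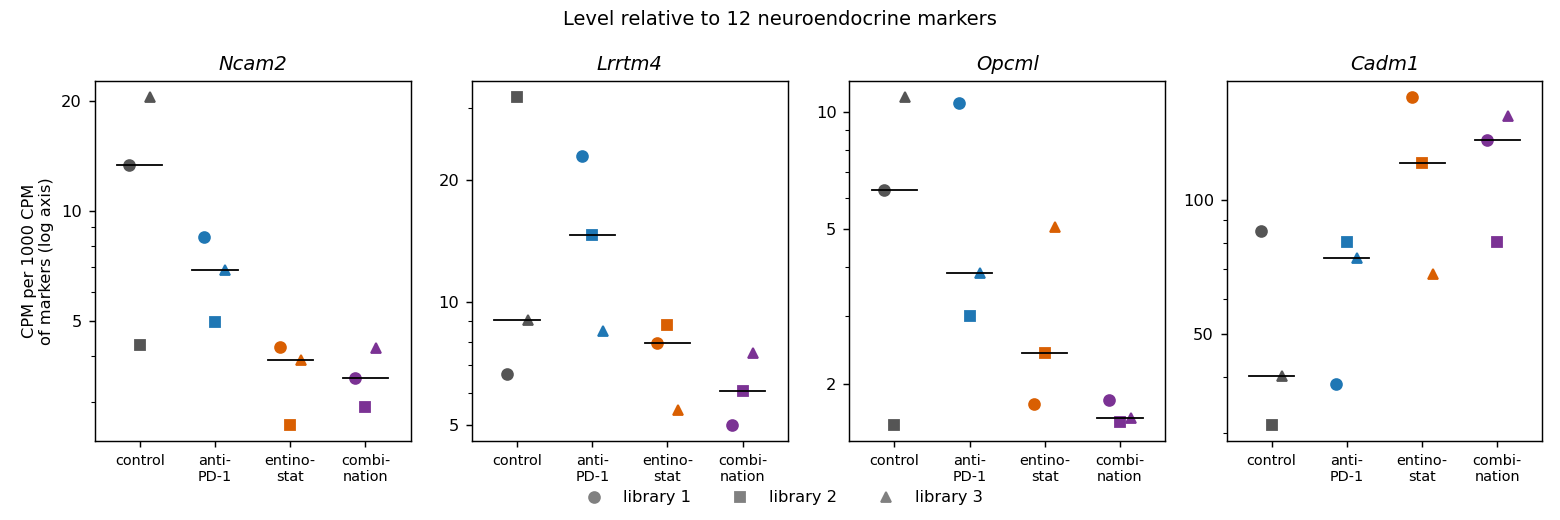
Level of Ncam2, Lrrtm4, Opcml and Cadm1 per 1000 CPM of 12 neuroendocrine markers (log axis) in each library, by group, with the group median as a bar. Ncam2 lies at 2.59 to 4.22 in the 6 libraries with entinostat and at 4.28 to 20.4 in the 6 without, while Cadm1 reaches 169 with entinostat and at most 85.0 without.

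Genes most like each member across the 12 libraries were named by the 3 highest Pearson r of log2 CPM, as a description. For Ncam2 they included Hist3h2ba (0.96) and B4galt2 (0.94), and for Opcml they included Scyl2 (0.92) and Ncam2 itself (0.92). Lrrtm4 was most like Pak3 (0.95), Cend1 (0.95) and Bex2 (0.94), all known from neurons. Cadm1 was most like Csrnp2 (0.96), Ttyh2 (0.95) and Gdpd5 (0.93), Nlgn1 like Tle1 (0.89), Hoxb5 (0.88) and Tshz1 (0.86), and Lsamp like Rogdi (0.92), Pcbp3 (0.89) and Pcmtd2 (0.88). Ntm, with 9 to 279 counts per library, was most like Rpl30 (0.85), Rpsa (0.83) and Armcx5 (0.82). Lypd1 was like Gpr39, then Cdk5r1 (0.93) and Anapc11 (0.92). For Negr1 the leading gene was Slc35f1 (0.92), then Map3k12 (0.91) and Hs6st2 (0.90). Without the 2 libraries farthest from the median of Negr1, r was 0.16 with Slc35f1, 0.47 with Map3k12 and 0.59 with Hs6st2. Left out in the same way for Ntm, r was 0.63 with Rpl30, 0.60 with Rpsa and 0.61 with Armcx5. Among the other members the lowest such r was 0.76, for Lsamp with Pcbp3.

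Among 126 related genes for neural adhesion, synaptic partners, scaffolds and nicotinic receptors, 115 could be tested. For the entinostat main effect, 2 of the 115 were higher by edgeR's adjusted p and 0 were lower, where 10.6% of all genes were called in either direction. The list's median was −0.25, against 0.02 for all genes. DESeq2 called 12 of them, against 19.5% of all genes. Medians by family ran from −1.14 for the 15 tested genes of the L1 and contactin families and −0.94 for 15 other immunoglobulin and cadherin adhesion genes to 0.17 for 21 leucine-rich repeat synaptic genes and 0.43 for 5 Ly6 family genes.

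Igsf9b, an adhesion protein of inhibitory synapses, rose. Its level was 5.12 ± 2.34 CPM in controls, 6.95 ± 3.22 under anti-PD-1, 14.1 ± 1.81 under entinostat and 15.8 ± 5.91 under the combination (SD, n = 3 each), a main effect of 1.32 (SE 0.32) with an edgeR adjusted p of 0.028. The call was lost, with an adjusted p of 0.053 to 0.069, when anti-PD-1 library 1 or 3, entinostat library 2 or 3 or combination library 1 or 3 was left out. Chrna10, a nicotinic receptor subunit of hair cells, also passed (edgeR adjusted p = 0.043) but on 0 to 4 counts per library in the control group and 2 to 3 with anti-PD-1, against 6 to 50 with entinostat and 2 to 31 with the combination. It passed in 3 of the 12 fits that left out a library, those without control library 1, entinostat library 1 or combination library 2.

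**Figure D5:**
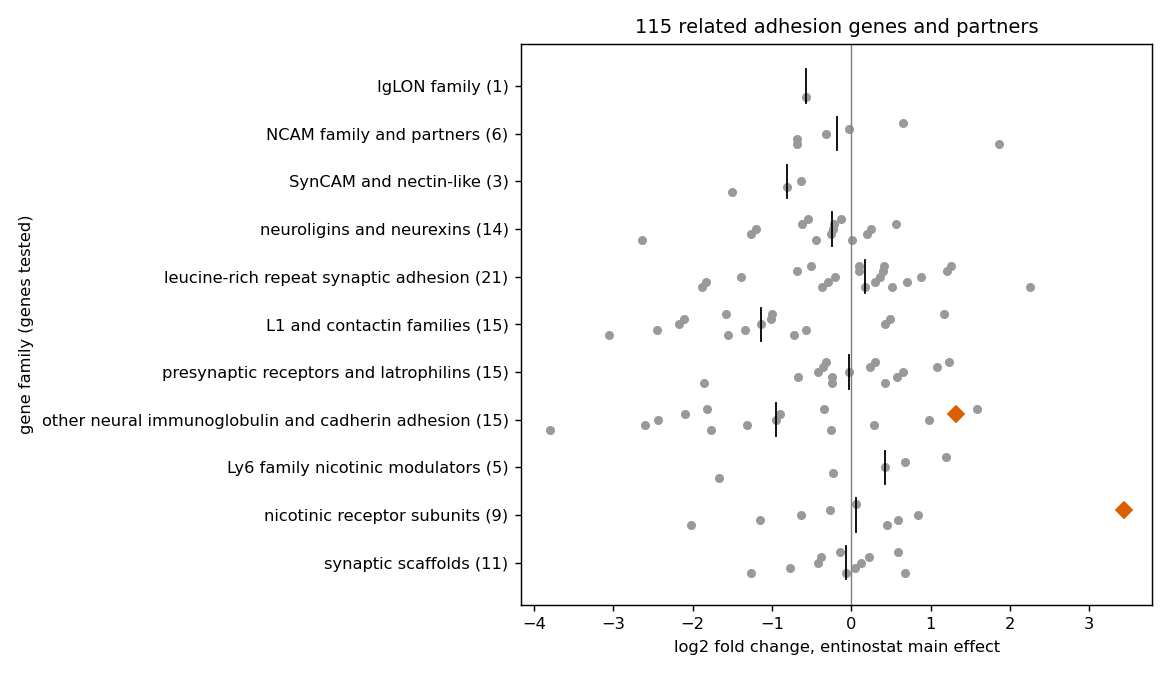
Fitted log2 fold change of the entinostat main effect for 115 related adhesion genes and partners, by family. Each point is a gene, orange diamonds are the 2 with an adjusted p under 0.05 (Igsf9b and Chrna10), and black bars are family medians, which run from −1.14 for the L1 and contactin families to 0.43 for the Ly6 family.

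Closest relatives and binding partners, named here for their families, gave these values for the entinostat main effect. Ncam1, the diagnostic relative of Ncam2, had −0.03 (SE 0.32), with 210 ± 42.0 CPM without and 205 ± 110 CPM with entinostat (SD, n = 6 each). Lrrtm1 had −1.83 (SE 0.56, edgeR adjusted p = 0.059) and Lrrtm2 0.30 (SE 0.33). Nrxn3, a presynaptic neurexin of the family that binds Nlgn1, had −2.64 (SE 0.82, edgeR adjusted p = 0.060), and Nrxn2 had −0.25 (SE 0.38). None of these passed the threshold in edgeR, and DESeq2 called Lrrtm1 and Nrxn3. Whether Ncam2 differed in its response from Ncam1 was not tested.

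In entinostat against control, the combination against anti-PD-1 and the anti-PD-1 main effect, 0 of the 115 related genes passed edgeR's adjusted threshold. Entinostat against control gave 16 at an unadjusted p under 0.05 (24.4% of all genes) and 9 by DESeq2 (13.4% of all genes), where edgeR's adjusted p called 5.27% of all genes in either direction. The combination against anti-PD-1 gave 9 (12.4% of all genes) and 3 (2.52%), and the anti-PD-1 main effect 9 (10.8%) and 1 (0.313%). The most highly expressed of the list were Ptprs, a presynaptic receptor phosphatase, and Adgrl1, a latrophilin that binds teneurins. Ptprs had a log2 fold change of 0.27 (SE 0.35) for entinostat against control and 0.19 (SE 0.35) for the combination against anti-PD-1. Adgrl1 had 0.79 (SE 0.25, edgeR adjusted p = 0.083) and 0.35 (SE 0.25, adjusted p = 0.593). For the anti-PD-1 main effect, Ptprs had 0.01 (SE 0.25) and Adgrl1 0.50 (SE 0.17, edgeR adjusted p = 0.397).

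The combination against control was looked at for the related genes after the other comparisons. By edgeR, 5 of the 115 passed the adjusted threshold, against 11.7% of all genes, and DESeq2 called 16, against 19.3% of all genes. Adgrl1 (log2 fold change 1.07, SE 0.25), Fgfr1 (1.52, SE 0.42), a growth factor receptor that binds NCAM proteins, and Igsf9b (1.62, SE 0.46) were higher. St8sia4, which adds polysialic acid to NCAM, was lower (−1.29, SE 0.35). Lrfn5, a synaptic leucine-rich repeat protein, was higher on 16 to 28 counts per library in the combination against 0 in each control library. The count was 0 when only the control and combination libraries were fitted, 0 without combination library 1 or 3, 2 without control library 1 or entinostat library 2, and 3 without control library 2, entinostat library 3 or combination library 2.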

How the data were processed

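Raw counts per gene were deposited by the authors as a table of 22738 rows with a column for each of the 12 libraries, all of which were used. The submitters' processing notes name the build mm9, STAR 2.5.4a, Trimmomatic 0.36, Trim Galore, R 3.5.1 and DESeq2 1.22.2. The sources used here do not give the annotation, the strand setting or the handling of multiply mapped reads. Libraries were poly(A) selected from flash-frozen tumour, per the labels' protocols, and carry the same batch label. Groups follow the titles, since the treatment tag of the combination names the antibody alone. Among counts of 1 to 20, 65.3% to 77.2% per library are even, so both mates of a pair may have been counted; halved counts were an alternative. No 2 libraries agreed within sampling noise.

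The 9 genes and the list of 126 related genes were chosen with earlier results of these data known. Counts were fitted in R 4.3.3 with edgeR 4.0.16 (filterByExpr, TMM, a mean per group, robust quasi-likelihood F test), with Benjamini-Hochberg adjustment over 17426 genes and a threshold of 0.05. Named are all 9 genes, related genes past the threshold (else the 2 with the highest level) and the 3 genes most like each member; family paralogues and partners were added outside this rule. Some genes the rule takes are not reported here. Log2 CPM used a prior count of 2. DESeq2 1.42.0, other scaling factors, no filter, halved counts, a replicate block and leaving out each library were alternatives. On simulated data with 200 changed genes among 17426, the fit recovered 43.3% of 4-fold and 4% of 2-fold changes for the combination against anti-PD-1, and 63.3% and 25% for the entinostat main effect. The adjusted threshold depends on how many genes change. In the data 1849 genes were called for the entinostat main effect, so recovery there may differ from the simulated share.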

Additional observations from a re-analysis of the deposited data

Results flagged for a closer look

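In all, 2 values stood apart from the other libraries of their set by Dixon's gap test at the 95% level, out of 18 sets of 6 libraries tested, where chance alone flags about 1 set in 20. Opcml in entinostat library 3 had a log2 CPM of 2.21, above the other 5 libraries with entinostat. Negr1 in control library 3 had a log2 CPM of −2.29, below the other 5 libraries without entinostat.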

How the results depend on the processing

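Of the 8 members other than Lrrtm4, the count called in the combination against anti-PD-1 was 0 in every edgeR setting and every fit that left out a library, and 2 with DESeq2; for the anti-PD-1 main effect it was 0 throughout. The 6 genes with a log2 fold change under −1 for entinostat became 5 to 7 when a library was left out. Of the related genes, the entinostat main effect called 12 with DESeq2, 0 with the replicate block, 1 with halved counts and 0 to 5 when a library was left out (5 without any 1 of the control libraries; 0 without anti-PD-1 1 or 3, entinostat 2 or 3 or combination 1). Entinostat against control called 9 with DESeq2, 1 with upper quartile factors and 0 to 2 when a library was left out (2 without control 3). The combination against anti-PD-1 called 3 with DESeq2, and the anti-PD-1 main effect 1. For the combination against control, whose alternatives were chosen after seeing the data, the 5 related genes became 8 with no filter or with halved counts, 16 with DESeq2 and 0 to 7 when a library was left out. Over all genes, the combination against anti-PD-1 called 422 with DESeq2 and 3 when only the compared groups were fitted. The causes were not tested.

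Signs turned in 4 cases, all small values. In the combination against anti-PD-1, Negr1 became 0.44 without anti-PD-1 1, Cadm1 −0.20 without combination 3 and Lypd1 −0.23 without anti-PD-1 2, within ranges over left-out libraries of −0.53 to 0.44, −0.20 to 0.48 and −0.23 to 0.91. In the anti-PD-1 main effect Lypd1 became 0.53 without control 1 (range −0.73 to 0.53). Igsf9b had an adjusted p of 0.056 and Chrna10 of 0.063 with the replicate block. Upper quartile factors moved the median of all genes for the entinostat main effect from 0.02 to 0.15, and the split of calls from 674 higher and 1175 lower to 1046 and 632; the members' median went from −1.60 to −1.44.

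Replicate numbers did not pair the libraries: of 18 pairs with the same number, 7 had deviations correlated above 0.1 (r from −0.33 to 0.23), and 0 of 12 libraries correlated best with its own number in every other group. With 3 libraries a group and the recovery of 2-fold changes given above, genes that did not pass may have changed. Intervals and p-values do not cover the uncertain assignment of reads between overlapping genes.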
